A study of Mus musculus with 30 samples.

Results

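Expression of 9 genes of butyrate uptake, fatty acid oxidation and the PPAR response was followed across 30 RNA-seq libraries of mouse colon. The genes were taken by name from the deposited table of 14475 genes: the transporters Slc16a1 and Slc5a8, the oxidation enzymes Acads, Acadm, Cpt1a, Acaa2 and Hadha, and the fasting-response genes Pdk4 and Angptl4. They were chosen by name and pathway, with earlier results of these data known, and all 9 were found and passed the filter on low values in every comparison. The mice were female, and each end of the colon, ascending and descending, gave 7 control and 8 mutant libraries. The mutants were C1galt1f/f;VillinCre-ERT2;C3GnT-/- mice, in which the enzyme of the core 3 O-glycan (C3GnT, gene B3gnt6) is deleted throughout the body and that of the core 1 O-glycan (C1galt1) can be deleted where the Villin promoter drives a tamoxifen-dependent Cre, the gut epithelium. The controls were labelled Control and described as wild-type littermates. Mutants and littermates alike received tamoxifen by injection, 0.5 mg a day (about 20 mg/kg) over 5 days, and tissue was taken 5 or 10 days afterwards, which of these for which library not being said. The mice lived in 3 cages with the same microbiota. Cage A (2 control and 3 mutant libraries per region, 'C57BL/6 Background') was 3.4 months old, and cages B (3 and 2 libraries) and C (2 and 3 libraries), both 'Mixed BL/6-129SvJ', were 2.6 and 3.2 months old, so that cage, strain and age cannot be told apart. Nothing in the labels says whether an ascending and a descending library came from 1 mouse, and p-values measure the spread between these libraries.

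Butyrate, a product of bacterial fermentation, is the main fuel of the colonic epithelium. It enters the cell through the proton-coupled carrier MCT1 (Slc16a1) and the sodium-coupled carrier SMCT1 (Slc5a8), is activated to butyryl-CoA and is oxidised in mitochondria in a first step by the short-chain acyl-CoA dehydrogenase (Acads). Longer fatty acids reach the same pathway through the carnitine shuttle, in which Cpt1a is the controlled step. Acetyl-CoA left over can be turned into ketone bodies. Fatty acids activate the nuclear receptors called PPARs, which induce many genes of oxidation and also Pdk4, a kinase that shuts off pyruvate dehydrogenase, and Angptl4, a secreted inhibitor of lipoprotein lipase.

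Values were FPKM, fragments per kilobase of gene per M mapped reads, with 2 decimals. Depth, which is unknown, was estimated from the spacing of low values at 3.42 to 6.46 M reads in the ascending controls, 1.43 to 7.76 in the ascending mutants, 3.17 to 8.78 in the descending controls and 6.49 to 8.85 in the descending mutants. The ascending mutants of cage A had the lowest estimates, 1.4 to 1.6 M, against 3.47 and 6.46 M in the ascending controls of that cage. Genotype and depth thus cannot be told apart within ascending cage A. Depth also went with region, with median estimates of 3.84 M in the ascending and 7.16 M in the descending controls. In mutants they were 3.48 and 7.27 M. The part of depth in the regional results was not tested. All 12 epithelial markers were measured, with summed levels between 4209 and 8818 FPKM over all groups, and other cells were present in varying amounts. Smooth muscle markers (9 of 9 measured) summed to 29.5 to 436 FPKM in the ascending controls, 20.3 to 67.0 in the ascending mutants, 33.2 to 450 in the descending controls and 42.4 to 290 in the descending mutants. The adipocyte markers (7 of 7 measured) summed to 0.23 to 49.5, 0.16 to 19.5, 0.99 to 13.5 and 0.35 to 5.08 FPKM in the same order, with Adipoq at 0 in 3, 2, 3 and 5 libraries. For the genes described here 4 libraries often lay at an extreme of their groups, namely ascending control B1, ascending mutant B1, descending control A2 and descending mutant C1. They are called below the 4 that stood apart, and were picked after seeing the data, with no rule fixed beforehand. Dixon's ratio, given in the closing sections, flagged only ascending mutant B1. Calls on the 9 genes that change without these 4 are given both ways, and such a change is no independent support.

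The 9 genes are all protein-coding. On GRCm38, Slc16a1 (ENSMUSG00000032902.1) lies on chromosome 3 from 104638668 to 104658462 on the plus strand, and Slc5a8 (ENSMUSG00000020062.7) on chromosome 10 from 88885992 to 88929515, also on the plus strand. Pdk4 (ENSMUSG00000019577.6) lies on chromosome 6 from 5483351 to 5496309 on the minus strand. Their RefSeq promoters (GRCm38.p6, 250 bases before to 50 after the annotated start) are shown because these genes carried the regional difference in transport and the largest regional difference of the 9. Capitals mark each match to the core of the hypoxia element, ACGTG, on either strand, and the sequences cover chr3:104638414-104638713 (plus strand), chr10:88885742-88886041 (plus strand) and chr6:5496229-5496528 (minus strand).
Slc16a1: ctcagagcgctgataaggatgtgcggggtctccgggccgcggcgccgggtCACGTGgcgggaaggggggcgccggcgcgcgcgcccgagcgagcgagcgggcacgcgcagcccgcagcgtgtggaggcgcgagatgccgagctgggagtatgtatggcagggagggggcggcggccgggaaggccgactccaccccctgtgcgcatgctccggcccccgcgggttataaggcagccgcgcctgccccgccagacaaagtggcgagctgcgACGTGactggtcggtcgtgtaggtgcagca
Slc5a8: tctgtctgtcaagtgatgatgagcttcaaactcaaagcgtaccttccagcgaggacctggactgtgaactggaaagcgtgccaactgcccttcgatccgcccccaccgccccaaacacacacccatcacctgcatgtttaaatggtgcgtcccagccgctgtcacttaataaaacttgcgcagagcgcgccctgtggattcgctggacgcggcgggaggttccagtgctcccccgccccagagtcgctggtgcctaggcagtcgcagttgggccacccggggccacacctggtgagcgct
Pdk4: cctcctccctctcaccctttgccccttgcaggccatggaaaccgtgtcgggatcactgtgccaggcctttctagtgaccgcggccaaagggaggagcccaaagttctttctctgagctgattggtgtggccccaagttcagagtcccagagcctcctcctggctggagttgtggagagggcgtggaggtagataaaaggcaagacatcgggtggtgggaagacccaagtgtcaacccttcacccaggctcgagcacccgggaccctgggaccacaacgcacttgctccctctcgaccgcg

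Promoters were matched for 7 of the 9 genes, Acaa2 and Angptl4 having no entry. ACGTG was found in the Slc16a1 promoter alone among the 7, with 3 matches, of which those at 200 and 199 bases before the start (offsets -200 and -199) overlap in the capitalised CACGTG and the third begins at offset 20. Of 32851 promoters of this length, 19.6% hold ACGTG. The PPAR response element, written as AGGTCA, any 1 base and AGGTCA again and searched on both strands with at most 2 mismatches among its 12 fixed letters, was found in 0 of the 7 windows and in 3.86% of all promoters. These are matches of letters only, in windows of this length only.

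**Figure D1:**
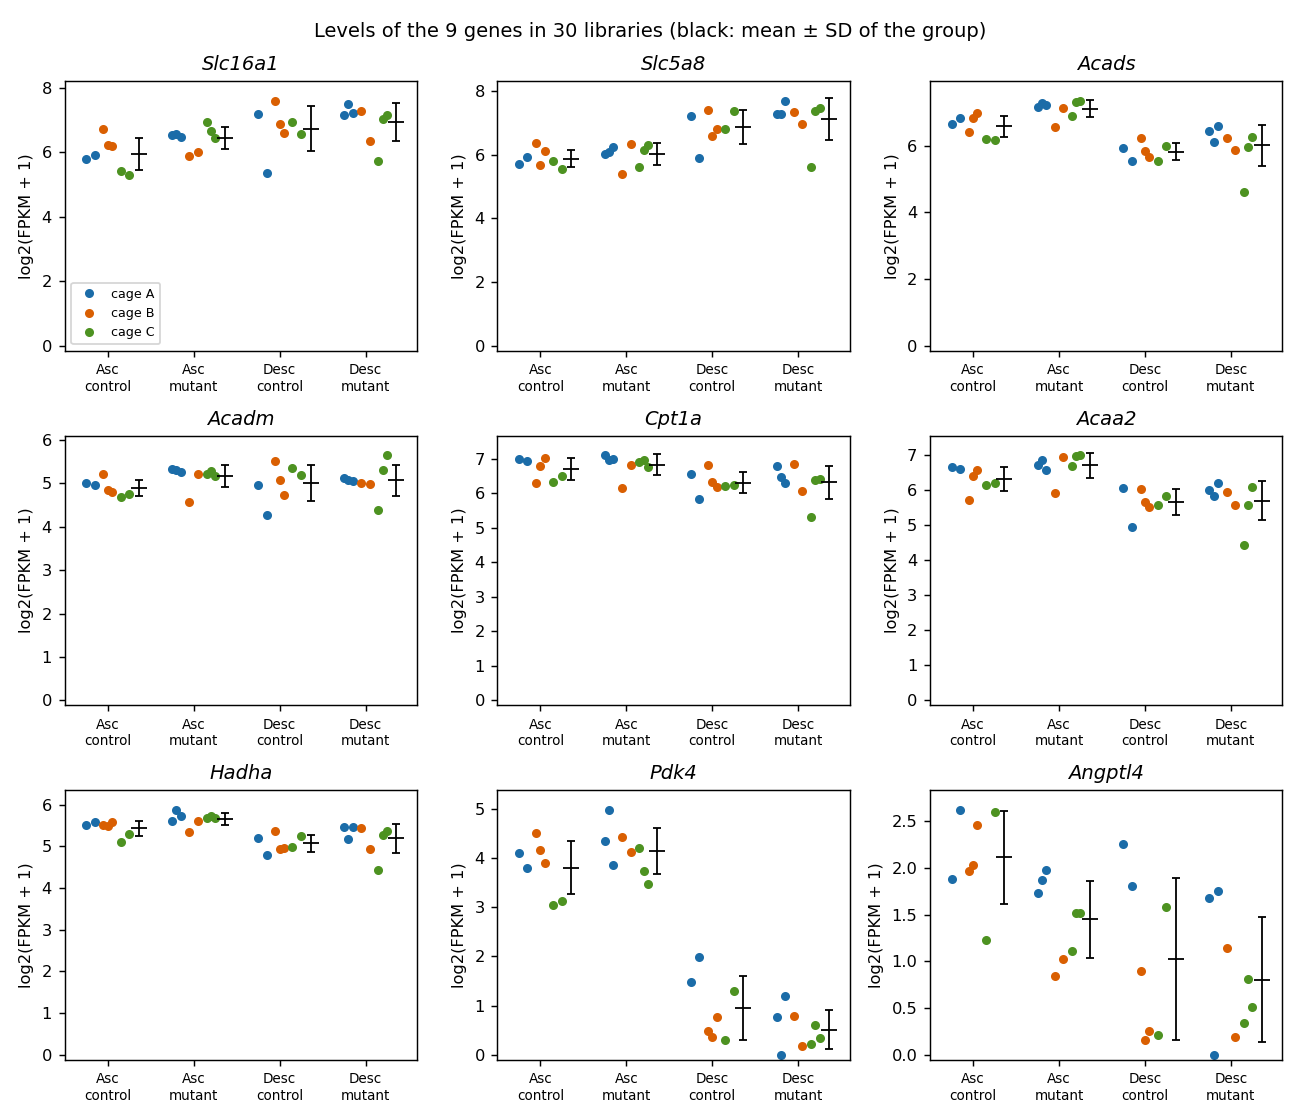
Level of each gene in the 30 libraries as log2(FPKM + 1) on the vertical axis, by region and genotype, with points coloured by cage and black bars for the mean and SD of each group. Pdk4 separates the regions without overlap, while the other 8 genes overlap between regions in controls and in mutants.

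The first comparison asked how the 2 ends of the colon differed in the controls. The butyrate carriers were lower in the ascending than in the descending colon, and the enzymes Acads, Acaa2 and Hadha as well as Pdk4 and Angptl4 were higher. In all, 7 of the 9 genes passed the test, 5 higher and 2 lower, where 37.9% of the 12515 genes tested passed (12.8% higher in the ascending colon and 25.1% lower). Differences are ascending minus descending on the log2(FPKM + 1) scale with their SE from limma, which understates the change of low genes. The median difference over the 9 genes was 0.39 and that over all genes -0.14. Because these are pieces of tissue, fewer cells of a type and less RNA per cell cannot be told apart.

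Slc16a1 ranged from 38.4 to 104 FPKM (median 59.5) in the ascending controls and from 40.0 to 193 FPKM (median 117) in the descending controls. The ranges overlapped through the highest ascending library, B1, and the lowest descending library, A2. The difference was -0.80 ± 0.26 (limma, Benjamini-Hochberg adjusted p = 0.0272), and within cages it was -0.42 (A), -0.65 (B) and -1.39 (C). This call depended on scaling and on single libraries: it was -0.64 with adjusted p = 0.114 after median-of-ratios scaling, and it was lost in 7 of the 14 fits that left out 1 library (adjusted p up to 0.0641), without cage B (adjusted p = 0.137) and without cage C (adjusted p = 0.234). Without the 4 libraries that stood apart it was -1.14 with adjusted p = 1.78e-04 (limma). These include the ascending B1 and the descending A2 that made the ranges overlap, so a larger gap was built in.

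Slc5a8 ranged from 46.0 to 80.8 FPKM (median 54.4) in the ascending controls and from 57.9 to 169 (median 111) in the descending controls. All but descending control A2, at 57.9, lay above every ascending library. The difference was -0.99 ± 0.22 (limma adjusted p = 0.00280), negative in all 3 cages (-0.73 to -1.42), and it passed in each of the 14 fits without 1 library.

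Of the oxidation enzymes, Acads (ENSMUSG00000029545.13, chromosome 5, 115110299 to 115119346, minus strand), which acts on butyryl-CoA, ranged from 71.0 to 124 FPKM (median 99.5) in the ascending and from 45.5 to 74.5 (median 56.4) in the descending controls. Only the top descending library, B1, reached into the ascending range. Its difference was 0.76 ± 0.14 (limma adjusted p = 9.25e-04) and was positive in each cage, from 0.41 to 1.00. Acaa2, the mitochondrial thiolase that cuts off acetyl-CoA, ranged from 51.4 to 101 FPKM (median 84.0) against 30.2 to 66.7 (median 49.5), a difference of 0.66 ± 0.19 (limma adjusted p = 0.0144). Only ascending control B1, at 51.4, lay inside the descending range, and 3 descending libraries lay above it.

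Hadha (ENSMUSG00000025745.12, chromosome 5, 30118304 to 30155162, minus strand), the alpha subunit of the trifunctional protein for long chains, was 33.1 to 46.9 FPKM (median 44.4) in the ascending and 26.8 to 40.1 (median 30.8) in the descending controls. Its difference was 0.36 ± 0.11 (limma adjusted p = 0.0198). Within cages it was 0.54 in cage A, 0.44 in B and 0.068 in C. Exons of Hadha overlap Garem2 on the other strand, and whether counting used strand is not stated, so reads of the pair cannot be told apart there.

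Cpt1a (ENSMUSG00000024900.4, chromosome 19, 3322334 to 3385733, plus strand), the entry of long-chain fatty acids to mitochondria, ranged from 78.2 to 130 FPKM (median 111) and from 56.8 to 112 (median 75.5). Its difference of 0.39 ± 0.16 did not pass (limma adjusted p = 0.0692), but did after median-of-ratios scaling (0.55, adjusted p = 0.0279) and without the 4 libraries that stood apart (0.36, adjusted p = 0.0253). Acadm (ENSMUSG00000062908.12, chromosome 3, 153922357 to 153944632, minus strand), the medium-chain dehydrogenase, was 24.9 to 36.5 FPKM (median 27.9) against 18.2 to 44.8 (median 33.1). At -0.12 ± 0.16 it did not pass (limma adjusted p = 0.606), and its sign turned to 0.042 after median-of-ratios scaling. The short-chain and medium-chain dehydrogenases thus gave different values on the same scale, 0.76 and -0.12, a difference that was not itself tested.

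Pdk4 had the largest regional difference of the 9 genes. It ranged from 7.24 to 21.6 FPKM (median 13.9) in the ascending and from 0.24 to 2.96 (median 0.70) in the descending controls. No descending library reached the lowest ascending one. The difference was 2.85 ± 0.24 (limma adjusted p = 1.71e-06), and within cages it was 2.22 (A), 3.65 (B) and 2.29 (C). Pdk4 was the only one of the 9 without overlap between regions, where 3.83% of all genes tested lay higher in the ascending colon without overlap, and 10.7% did not overlap in either direction. Angptl4 (ENSMUSG00000002289.16, chromosome 17, 33773750 to 33781830, minus strand) ranged from 1.35 to 5.18 FPKM (median 3.10) in the ascending and from 0.12 to 3.80 (median 0.87) in the descending controls. Of the descending libraries 3 were at 0.12 to 0.19 FPKM and 4 at 0.87 to 3.80, and the difference was 1.09 ± 0.30 (limma adjusted p = 0.0119), ranging from 0.22 in cage A to 1.72 in cage B. Leaving out a cage ended the calls of Acaa2 (adjusted p = 0.0659 without B and 0.0583 without C), Hadha (0.0908 without A and 0.230 without B) and Angptl4 (0.331 without B) in limma.

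Adipocytes, which also express Angptl4 and Pdk4, were represented unequally, as the marker sums above show. In the ascending controls of cage A they summed to 19.7 and 49.5 FPKM, with Angptl4 at 2.70 and 5.18. In cage B they summed to 2.15, 45.5 and 0.23 FPKM, with Angptl4 at 2.91, 3.10 and 4.52, and in cage C to 2.15 and 19.5 FPKM, with Angptl4 at 1.35 and 5.08. Angptl4 was thus higher in the library with the larger sum in cages A and C, and in cage B highest in the library with the smallest sum. In the same order of libraries Pdk4 was 16.1 and 13.0 FPKM in cage A, 21.6, 16.9 and 13.9 in cage B, and 7.24 and 7.75 in cage C. Of the 4 adipocyte markers tested in this comparison, 0 passed. Markers of absorptive colonocytes passed in 7 of 12 cases as higher and in 3 as lower in the ascending controls, and their sum was 8202 to 15164 FPKM there against 1981 to 5535 in the descending controls. Markers of dividing and crypt base cells passed as lower in 7 of 8 cases, with sums of 39.1 to 72.6 against 83.8 to 152 FPKM. Their part in the regional results was not tested.

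In the mutants the regions were compared in the same way, over 16 libraries. Again 7 of the 9 genes passed, 6 higher and 1 lower in the ascending colon, where 44.0% of the 12203 genes tested passed (14.3% higher and 29.7% lower). The median over the 9 genes was 0.51 and over all genes -0.16. Slc5a8 was 41.2 to 80.4 FPKM (median 68.1) in the ascending and 47.6 to 206 (median 157) in the descending mutants, with a difference of -1.10 ± 0.24 (limma adjusted p = 0.00139). Only descending mutant C1, at 47.6, lay inside the ascending range. Slc16a1 was 58.1 to 120 FPKM (median 89.5) against 52.5 to 179 (median 142), and its difference of -0.50 ± 0.21 did not pass (limma adjusted p = 0.0654). Within cages it was -0.77, -0.87 and 0.024. Without descending mutant C1, the lowest descending mutant library for Slc16a1, it was -0.69 (limma adjusted p = 5.12e-04). Without the 4 libraries that stood apart it was -0.66 (limma adjusted p = 0.00130). Both fits leave out C1, which was singled out for its low value, so neither is independent support for a call. Slc16a1 also passed with quantile normalization and with array quality weights, which keep all 16 libraries, without cage C, and without ascending mutant C1. Of the 14 alternatives other than fits without 1 library, 4 called it, among them the fit without the 4 libraries that stood apart. Slc5a8 missed the threshold without cage A (-0.99, limma adjusted p = 0.0501).

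Acads stood at 94.2 to 162 FPKM (median 145) in the ascending and 23.4 to 96.3 (median 70.7) in the descending mutants, a difference of 1.10 ± 0.21 (limma adjusted p = 4.92e-04). Only the lowest ascending library, B1, and the highest descending library, A3, overlapped. Acaa2 ranged from 60.3 to 128 FPKM against 20.5 to 73.1 and differed by 1.01 ± 0.22 (limma adjusted p = 0.00153). Hadha ranged from 39.6 to 57.9 FPKM against 20.7 to 43.1 and differed by 0.46 ± 0.13 (limma adjusted p = 0.00979). Cpt1a ranged from 70.4 to 137 FPKM against 38.9 to 114 and passed here, at 0.51 ± 0.18 (limma adjusted p = 0.0332), though it was lost in 8 of the 16 fits without 1 library. Acadm, at 22.8 to 39.6 FPKM against 19.8 to 49.4, differed by 0.10 ± 0.15 and did not pass (limma adjusted p = 0.606).

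Pdk4 ranged from 10.1 to 30.6 FPKM (median 17.0) in the ascending mutants and from 0 to 1.29 (median 0.39) in the descending mutants. No descending library reached the ascending range, and the difference was 3.63 ± 0.19 (limma adjusted p = 1.79e-10), with 3.42 to 3.78 within cages. It was the only one of the 9 genes without overlap, against 5.62% of all genes tested that lay higher in this way and 12.9% in either direction. Angptl4 was 0.79 to 2.94 FPKM (median 1.86) against 0 to 2.37 (median 0.60), with a difference of 0.65 ± 0.22 (limma adjusted p = 0.0270) that was lost in 3 of the 16 fits without 1 library. Leaving out cage C ended the calls of Angptl4, Hadha and Cpt1a in mutants, and leaving out cage A those of Hadha and Cpt1a. In 1 fit of all 30 libraries Angptl4 did not pass.

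**Figure D2:**
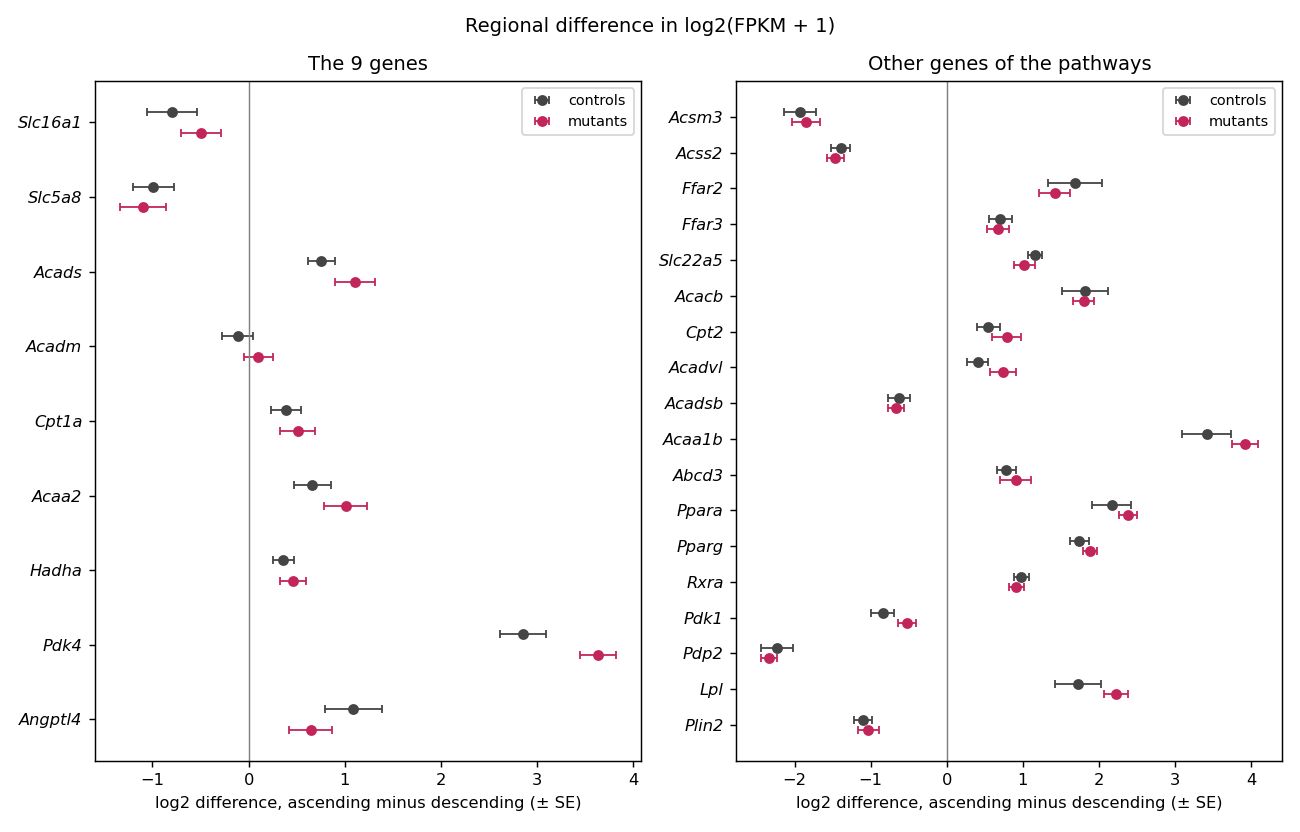
Regional difference in log2(FPKM + 1), ascending minus descending, with SE, in controls (dark grey) and mutants (red), for the 9 genes on the left and for a selection of other genes of the pathways on the right. Pdk4 stands at 2.85 and 3.63, both carriers lie below 0, and of the genes drawn on the right Acaa1b (3.42 and 3.92) lies farthest above 0.

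The values of both regional comparisons move with the scaling of the libraries. Median-of-ratios scaling moved the median of all genes from -0.14 to -0.0081 in controls and from -0.16 to -0.028 in mutants, and quantile normalization to -0.047 and -0.041. The genes called higher and lower numbered 1598 and 3146 in controls (33.7% higher), 2141 and 1883 after median-of-ratios scaling (53.2%), and 1941 and 2262 after quantile normalization (46.2%). In mutants they numbered 1748 and 3620 (32.6%), 2325 and 2283 (50.5%), and 2097 and 2282 (47.9%). Under median-of-ratios scaling Slc5a8 stayed lower and passed (-0.83 in controls and -0.94 in mutants), Pdk4 stood at 2.97 and 3.72, Acads at 0.92 and 1.26, Acaa2 at 0.82 and 1.17, and Hadha at 0.52 and 0.62, all passing. Relative to the median of all genes the carriers thus lay less far below, and Acads, Acaa2 and Hadha farther above, than the values without rescaling give.

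The counts of each list below are to be set beside the shares over all genes tested. These were 12.8% higher and 25.1% lower in controls, and 14.3% and 29.7% in mutants. Of the 8 genes of butyrate activation and ketone bodies tested in controls, 2 were higher and 3 lower in the ascending colon. Acsm3, an acyl-CoA synthetase for butyrate (-1.92 in controls and -1.84 in mutants), and Acss2, which activates acetate (-1.39 and -1.46), were lower. In mutants 3 were higher and 3 lower.

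Transport and sensing genes outside the 9 passed in all 7 cases tested in controls, 5 higher and 2 lower. The short-chain fatty acid receptors Ffar2 (1.69 in controls and 1.42 in mutants) and Ffar3 (0.70 and 0.67) were higher in the ascending colon, and the chloride-bicarbonate exchanger Slc26a3 was lower (-1.76 and -1.97). In mutants 4 were higher and 2 lower of 6, among them the lactate exporter Slc16a3 (MCT4), which was lower (-1.16 and -1.13).

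In the carnitine shuttle and among acyl-CoA synthetases, 4 of 12 genes were higher and 1 lower in controls, and the counts were the same in mutants. Slc22a5, the carnitine importer, was higher in the ascending colon (1.16 in controls and 1.02 in mutants), as was Acacb, whose product malonyl-CoA inhibits Cpt1 (1.82 and 1.80), and Cpt2, the second carnitine transferase (0.55 and 0.79). Acsl1 was lower (-0.73 and -0.77). In the mitochondrial beta oxidation list beyond the 9 genes, 3 of 17 were higher and 1 lower in controls, and 5 and 1 in mutants. The very-long-chain dehydrogenase Acadvl (0.40 and 0.74) and the electron carrier subunit Etfb (0.41 and 0.74) were higher, the first with a call in controls that 10 of 14 fits without 1 library lost, and Acadsb, for short branched chains, was lower (-0.63 and -0.67).

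Peroxisomal oxidation showed 9 higher and 2 lower of 12 genes, in controls and in mutants. Abcd3, a fatty acid transporter of the peroxisomal membrane, was higher (0.78 and 0.91). The thiolase Acaa1b differed by 3.42 and 3.92, with 2.14 to 19.6 FPKM in the ascending and 0 to 1.01 in the descending controls. It has a near-identical copy, Acaa1a, and how reads of the pair were assigned is not stated, so its values are uncertain.

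Of 11 receptors and coactivators of the PPAR response, 4 were higher and 2 lower in the ascending colon in each genotype. Among those higher, Ppara, the receptor of fasting and fatty acid oxidation, was 8.07 to 44.3 FPKM in the ascending and 1.88 to 4.81 in the descending controls (a difference of 2.166 in controls and 2.38 in mutants). Pparg, abundant in the colonic epithelium, was 41.4 to 61.3 against 11.5 to 23.1 FPKM (1.74 and 1.89), and their partner Rxra differed by 0.98 and 0.92. Of other PPAR targets, 6 were higher and 1 lower of 12 in controls and 7 and 1 of 11 in mutants. Fabp2, a fatty acid binding protein of enterocytes (5.91 and 6.53), Cyp4b1 (5.12 and 5.45) and the lipid droplet protein Cidec (2.85 and 3.07) were higher, and Plin2, another droplet coat protein, was lower (-1.11 and -1.03).

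Of 13 genes that set the use of pyruvate, 1 was higher and 4 were lower in controls and also in mutants, which is near the shares over all genes (12.8% higher and 25.1% lower in controls, 14.3% and 29.7% in mutants). Pdk1, a related kinase that is a target of hypoxia signalling, was lower in the ascending colon (-0.84 and -0.53), and Pdp2, the phosphatase that reverses the kinases, was lower by more (-2.23 and -2.33), with 2.75 to 11.02 FPKM against 15.5 to 30.6 in controls. Ldhb was higher (0.94 and 1.21). Beside Angptl4, lipoprotein lipase itself, Lpl, was 2.24 to 7.57 FPKM in the ascending and 0.15 to 3.54 in the descending controls (1.73 and 2.23). Of the 5 genes tested of that system, 2 were higher and 0 lower in controls, and 3 and 0 in mutants.

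Pdk4 and Angptl4 also respond to glucocorticoids and Angptl4 to hypoxia. The hypoxia targets were split, with 3 higher and 4 lower of 13 in controls and 4 and 5 in mutants. Ndrg1 was higher (1.35 and 1.78), and Egln3 (-1.59 and -1.08) and Bnip3 (-1.06 and -1.03) were lower. Glucocorticoid targets were split as well, with 1 higher and 3 lower of 10 in controls and 2 and 4 in mutants. In controls this is near the shares over all genes (12.8% higher and 25.1% lower). Fkbp5 was higher (1.42 and 1.59), and Zbtb16 (-1.99 and -1.97) and Ddit4 (-1.35 and -1.33) were lower.

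The next comparison asked whether loss of the O-glycan enzymes changed these genes in the ascending colon. No gene passed over the 12178 tested (limma, 0% called, with 11.5% at an unadjusted p under 0.05), and so none of the 9 did. Values were above 0 for 8 of the 9, with a median of 0.25 against -0.050 over all genes. All 9 overlapped between the genotypes, as did all but 0.0985% of the genes tested.

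Acads in the ascending colon was 71.0 to 124 FPKM (median 99.5) in controls and 94.2 to 162 (median 145) in mutants. Of the 8 mutant libraries 6 lay above every control. The difference, mutant minus control with cage as a covariate, was 0.53 ± 0.15 (limma adjusted p = 0.260), and within cages it was 0.48, 0.10 and 1.00. Angptl4 was the only one of the 9 below 0. Its controls were 1.35 to 5.18 FPKM (median 3.10) and its mutants 0.79 to 2.94 (median 1.86), with a difference of -0.72 ± 0.20 (limma adjusted p = 0.260). Within cages the values were -0.39, -1.22 and -0.54, below 0 in each.

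Slc16a1 had a difference of 0.52 ± 0.21 over all cages (limma adjusted p = 0.378), but its cages went different ways. In cage A the controls were at 54.1 and 59.5 FPKM and the mutants at 92.0, 93.8 and 87.1. In cage C the controls were at 42.1 and 38.4 FPKM and the mutants at 120, 101 and 85.0. In cage B the controls were at 104, 74.3 and 71.4 FPKM and the mutants at 58.1 and 63.3. The genotypes did not overlap in any of the cages, with mutants above controls in A and C and below in B. With so few libraries this is frequent within a cage, at 31.1% of all genes tested in A, 12.8% in B and 43.7% in C, and 1.38% did not overlap in each of the 3, in whichever directions. The within-cage differences were 0.67, -0.43 and 1.31. A test of cage dependence gave F = 23.2 and adjusted p = 0.142 (limma, 0% of genes called, with 10.4% at an unadjusted p under 0.05), rank 4 by p of 12178 genes. Without ascending mutant B2 the F was lower, at 19.1, and B1 was then the only mutant library of cage B. Cage B differs from C in age and from A in age and strain label, and has 2 mutant libraries.

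The other genes gave smaller values in the ascending colon. Pdk4 was 7.24 to 21.6 FPKM in controls and 10.1 to 30.6 in mutants (0.42 ± 0.17), Acaa2 51.4 to 101 and 60.3 to 128 (0.34 ± 0.17), Acadm 24.9 to 36.5 and 22.8 to 39.6 (0.25 ± 0.12), Hadha 33.1 to 46.9 and 39.6 to 57.9 (0.22 ± 0.09), Slc5a8 46.0 to 80.8 and 41.2 to 80.4 (0.15 ± 0.16), and Cpt1a 78.2 to 130 and 70.4 to 137 (0.095 ± 0.14). Acadm and Cpt1a were each lowest in ascending mutant B1, at 22.8 and 70.4 FPKM. Of the 5 enzymes, Acads, Acadm, Cpt1a, Acaa2 and Hadha all had their largest within-cage value in cage C, from 0.46 (Cpt1a) to 1.00 (Acads).

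**Figure D3:**
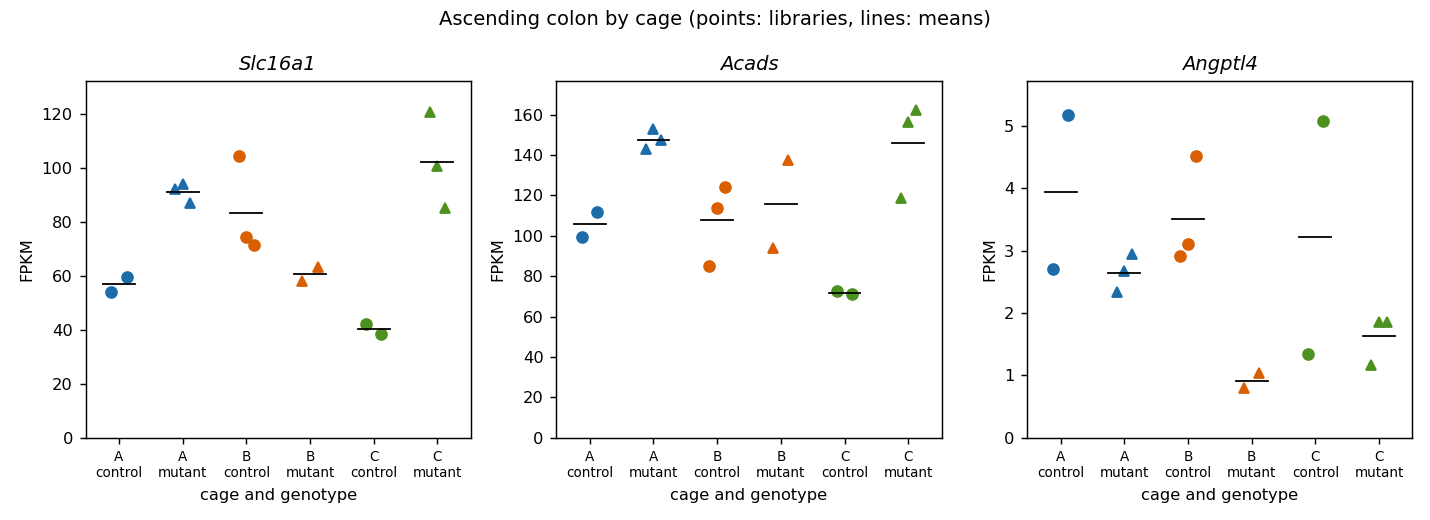
FPKM of Slc16a1, Acads and Angptl4 in the ascending colon on a linear axis from 0, by cage and genotype, with a point per library and a line at the mean. Slc16a1 mutants lie above controls in cages A and C and below them in cage B, and the Angptl4 mutants of cage B are the lowest, at 0.79 and 1.04 FPKM.

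That no gene passed for genotype in the ascending colon depended on cage B and on single libraries. Without cage B 3 of the 9 genes passed, Slc16a1 (0.99, adjusted p = 0.0113), Acads (0.74, adjusted p = 0.0208) and Acadm (0.41, adjusted p = 0.0232), all by limma, and 652 genes passed over all. Without the 4 libraries that stood apart 5 passed, namely Slc16a1 (0.73), Acads (0.63), Acadm (0.40), Acaa2 (0.41) and Hadha (0.29), and 839 genes over all. Of these 4, ascending mutant B1 was the lowest ascending mutant for each of the 5 genes, so this fit is no independent support. Without ascending mutant B1 alone 2 passed, Acads and Acadm. Markers of other cells also had values away from 0. All 9 smooth muscle markers had values below 0 in the ascending colon, with a median of -1.12, as had all 8 fibroblast markers, with a median of -0.93, all 6 macrophage markers, with -0.75, and all 4 adipocyte markers, with -0.74 beside -0.72 for Angptl4. Epithelial markers had a median of 0.21, with 9 of 12 above 0, and absorptive colonocyte markers one of 0.35. None of these markers passed, and their part in the values of the 9 genes was not tested.

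Among the other genes of the pathway, 0 passed in any list in the ascending colon. The ketone body and butyrate activation list had 6 of 8 values above 0 with a median of 0.27, and in it Bdh1, which interconverts the ketone bodies, had 0.49 ± 0.16. The beta oxidation list had 13 of 17 above 0 with a median of 0.16, led by Etfb (0.41 ± 0.13). Bdh1 passed without cage B (0.72, limma adjusted p = 0.0158) and without the 4 libraries (0.62, adjusted p = 0.0216).

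The genotypes were then compared in the descending colon. No gene passed over 12219 tested (limma, 0% called, with 2.19% at an unadjusted p under 0.05). The 9 genes ranged from -0.51 to 0.27, with 7 above 0 and a median of 0.063 against -0.037 over all genes, and each adjusted p was 0.999. Slc5a8 was 57.9 to 169 FPKM (median 111) in controls and 47.6 to 206 (median 157) in mutants, and differed by 0.27 ± 0.31. Slc16a1 was 40.0 to 193 FPKM and 52.5 to 179 and differed by 0.23 ± 0.32. The lowest library of each carrier was A2 in controls and C1 in mutants, and both libraries were also the lowest of their groups for Cpt1a, Acaa2, Hadha and Acadm.

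The oxidation enzymes of the descending colon gave 0.20 ± 0.23 (Acads), 0.12 ± 0.16 (Hadha), 0.063 ± 0.19 (Acadm), 0.056 ± 0.24 (Acaa2) and 0.046 ± 0.20 (Cpt1a). In each of the 5, and in both carriers, cage A had the highest within-cage value and cage C was below 0. Without cage A all of these, Slc16a1 and Slc5a8 included, were below 0, from -0.16 to -0.0026. Pdk4 was 0.24 to 2.96 FPKM in controls and 0 to 1.29 in mutants, a difference of -0.51 ± 0.23, with -1.07, -0.042 and -0.41 within cages. Angptl4 was 0.12 to 3.80 and 0 to 2.37 FPKM, a difference of -0.34 ± 0.31. The values of Pdk4 and Angptl4 were at 0 in the same descending library, mutant A2.

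**Figure D4:**
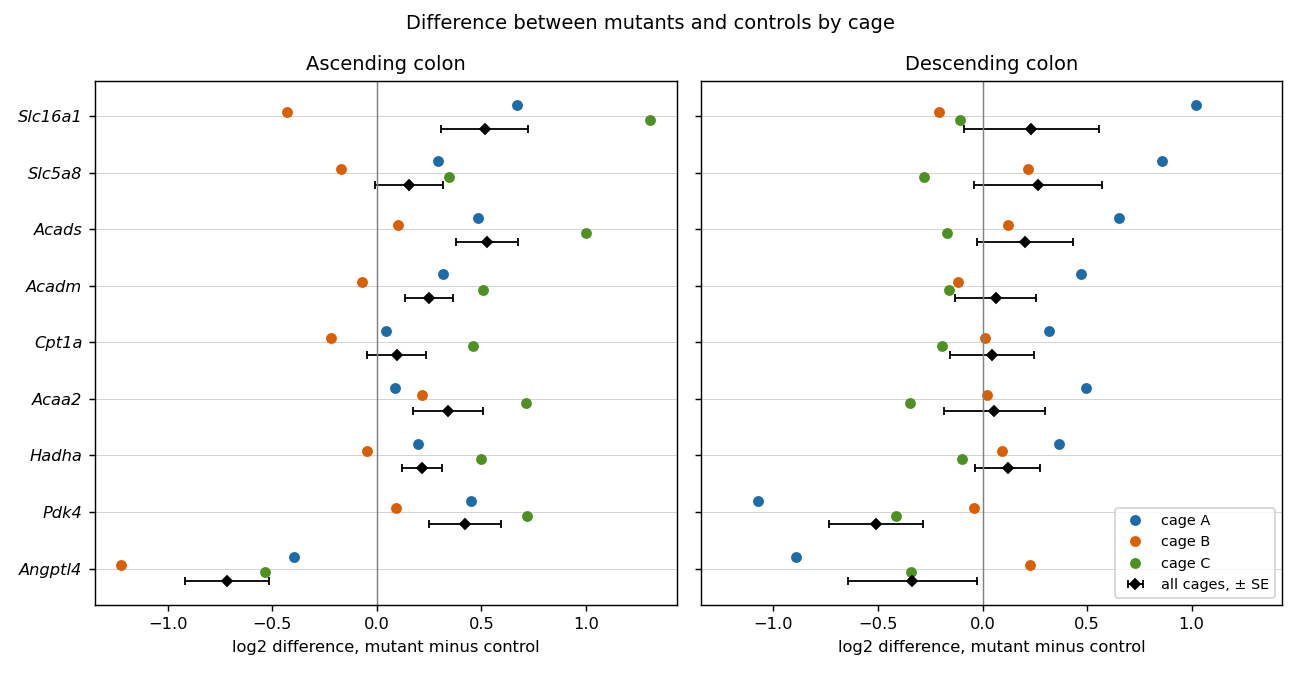
Difference between mutants and controls on the log2(FPKM + 1) scale in the ascending (left) and descending (right) colon, as the within-cage difference of means (coloured points) and the estimate over all cages with its SE (black). In the descending colon the blue points of cage A lie farthest right for both carriers and all 5 oxidation enzymes, and in the ascending colon the green points of cage C do so for 8 genes.

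Whether the genotype difference itself differed between regions was tested over all 30 libraries, and 0 of 12353 genes passed (limma, 0% called, with 1.60% at an unadjusted p under 0.05). Pdk4 had the largest value of the 9, 0.93 ± 0.29, at rank 8 by p, with an unadjusted p of 0.00389 and an adjusted p of 1.00. Its mean in mutants lay above that in controls in the ascending and below it in the descending colon in every cage. In cage B these differences were small, 0.093 and -0.042. The descending values of Pdk4 were low, at 0.24 to 2.96 FPKM in controls and 0 to 1.29 in mutants. The other 8 genes ranged from -0.38 (Angptl4) to 0.32 (Acads).

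Cages were compared within each region with genotype in the fit. In the ascending colon 1.32% of genes differed between cages (15.6% at an unadjusted p under 0.05) and none of the 9 did. Pdk4 came closest (F = 8.74, limma adjusted p = 0.0962), with 7.24 and 7.75 FPKM in the controls of cage C against 13.0 to 21.6 in those of cages A and B. In the descending colon 0.597% of genes differed (13.2% unadjusted) and again none of the 9, the largest F being that of Angptl4 (4.32, limma adjusted p = 0.335). Its descending libraries of at least 2 FPKM were 2 controls and 2 mutants of cage A and 1 control of cage C. Cage dependence of the genotype difference in the descending colon passed for 0.00818% of genes (4.42% at an unadjusted p under 0.05) and for none of the 9.

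Levels per length placed the 9 genes in a similar order in both genotypes. In the ascending controls the means were 106 ± 22.6 FPKM for Cpt1a (SD, n = 7), 96.8 for Acads, 81.3 for Acaa2, 63.4 for Slc16a1, 58.7 for Slc5a8, 42.5 for Hadha, 29.1 for Acadm, 13.8 for Pdk4 and 3.55 for Angptl4. The ranges of the first 5 overlapped, and Pdk4 and Angptl4 were each separated from their neighbours. In the descending controls Slc5a8 (122 FPKM) and Slc16a1 (115) led, ahead of Cpt1a (80.2) and Acads (56.5), and the last were Angptl4 (1.38) and Pdk4 (1.11), whose ranges overlapped. The carriers thus followed 3 oxidation enzymes at the ascending end and led at the descending end.

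Within regions the oxidation enzymes varied together from library to library. Across 15 libraries each, the Pearson r of log2 values of Acads with Hadha was 0.88 in the ascending and 0.94 in the descending colon, and that with Acaa2 was 0.82 and 0.93. The carriers correlated at 0.45 and 0.85 with each other. Angptl4 stood aside, with r of -0.12 and 0.35 with Acads, and its r with Pdk4 was -0.17 in the ascending and 0.87 in the descending colon. These are descriptions over libraries that share depth, cage and tissue makeup.

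The genes most like each of the 9, by the smaller of the r values in the 2 regions over 11121 genes, were Rab11a (0.897), Sar1b and G6pdx for Slc16a1, and Maea (0.866), Csnk2b and Psmd13 for Slc5a8. For Acads they were Uqcrq (0.936), Mdh2 and Atp5o, for Acadm H3f3b (0.853) and Mrpl43, and for Cpt1a Erlin2 (0.883), Cat and Tmem59. Acaa2 had Rps26 (0.913), Mrpl55 and Acadvl, and Hadha had Rtn3 (0.898), Sar1b and Cpt2. The closest genes of Pdk4 were Mgll (0.725), Plpp1 and Tmem252, and those of Angptl4 were Mbp (0.646), Clec11a and Rec8, with smaller values than for any of the enzymes.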

How the data were processed

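Total RNA (1 ug per library) was depleted of ribosomal RNA and read from 1 end over 50 nt, per the labels' protocols. The deposited values are FPKM computed by the authors. The submitters' processing notes name bcl2fastq (version 2.17), STAR, DESeq2 and the build GRCm38 (mm10), while counter, annotation and gene lengths are not stated there. Every column belonged to a sample. Positions come from GENCODE M21, which holds 14472 of the 14475 identifiers, and promoters from RefSeq. The estimated depth entered no test, and precision was taken from the spread between libraries.

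For the tests, log2(FPKM + 1) was fitted per comparison with limma 3.58.1 (R 4.3.3, eBayes with a trend) and a cage covariate, on genes averaging 0.5 FPKM or more over the libraries fitted. Genotype was compared in each region, region in each genotype, the genotype difference between regions over 30 libraries, and cage by moderated F tests. Passing meant a two-sided Benjamini-Hochberg adjusted p under 0.05 over all genes. The code was tested on simulated data. The closing section gives the effect of another pseudocount (0.1), other filters, scalings and weights, fits without single cages or libraries, a joint fit and a replicate block. A fit without the 4 libraries that stood apart was added after seeing the data.

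The 9 genes and all lists were chosen with earlier results of these data known. By rule, the 9 were named in every comparison, with up to 4 further genes of smallest p per pathway list and comparison, whose regional differences are given in both genotypes where printed, and the 3 genes most like each of the 9 among genes averaging 1 FPKM or more. Results of some genes that this rule names are not reported here.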

Additional observations from a re-analysis of the deposited data

Results flagged for a closer look

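For each of the 9 genes in each of the 4 groups of 7 or 8 libraries, the lowest and highest FPKM were compared with their nearest neighbours by Dixon's ratio of gap to range. Of 36 groups 2 had an extreme library, and chance gives about 1 in 20 groups. Both were ascending mutant B1, which was lowest for Acadm at 22.79 FPKM (gap 0.736 of the range) and for Cpt1a at 70.36 FPKM (gap 0.547 of the range).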

How the results depend on the processing

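The regional calls of Slc5a8 in controls, of Acaa2 in mutants, and of Acads and Pdk4 in both genotypes were kept in each alternative tried. No gene of the 9 that passed between regions changed sign in these alternatives. Genes called for genotype in the ascending colon went from 0 to 746 with array quality weights, 652 without cage B, 1 in 1 fit of all 30 libraries, 839 without the 4 libraries chosen after seeing the data, and 0 to 170 with 1 library left out. Of the 9 genes, 3, 3, 0, 5 and 0 to 2 then passed, and with array quality weights these were Slc16a1, Acads and Acadm. In the descending colon array quality weights called 1 gene. For regions, genes called in controls went from 4744 to 2069 without cage B and 2567 without cage C, and of the 9 genes 3 passed without cage B (Slc5a8, Acads and Pdk4). In mutants they went from 5368 to 3528 without cage C, and 4 of the 9 passed without cage A (Acads, Acaa2, Pdk4 and Angptl4). Cage differences went from 161 genes to 1579 with array quality weights (1 of the 9) and 44 to 581 with 1 library left out, and in the descending colon from 73 to 973 and 33 to 176 (0 to 1 of the 9, Angptl4 without descending mutant A2). Cage dependence went from 0 genes to 1 with a pseudocount of 0.1 and 0 to 381 with 1 library left out (0 to 1 of the 9, Slc16a1 without ascending mutant B2), and in the descending colon from 1 to 2 with array quality weights and 1 to 132. Fewer libraries were fitted where a cage or library was left out. Without ascending mutant B2, B1 was the only ascending mutant of cage B, and the F of Slc16a1 was lower than in the main fit. Otherwise the cause of these changes was not tested.

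Values that changed sign had not passed. Cpt1a in the ascending genotype comparison turned to -0.010 with quantile normalization and -0.088 without cage C. In the descending one, without cage A, the values were -0.16 (Slc16a1), -0.030 (Slc5a8), -0.024 (Acads), -0.14 (Acadm), -0.090 (Cpt1a), -0.16 (Acaa2) and -0.0026 (Hadha). Cpt1a there was -0.013 with quantile normalization. With 1 library left out the descending ranges were -0.10 to 0.41 (Slc16a1), -0.078 to 0.18 (Acadm), -0.077 to 0.17 (Cpt1a) and -0.14 to 0.22 (Acaa2). The difference between regions turned to -0.049 for Cpt1a with array quality weights, to 0.12, 0.030 and 0.10 for Slc5a8 without cage A, without cage B and without the 4 libraries, and to 0.15 for Angptl4 without cage B. Without cage C it was -0.29 (Slc16a1), -0.096 (Acads), -0.055 (Acadm), -0.25 (Cpt1a), -0.11 (Acaa2) and -0.16 (Hadha), and with 1 library left out -0.072 to 0.17 (Cpt1a), -0.0027 to 0.18 (Hadha) and -0.32 to 0.13 (Slc5a8). Acadm between regions was 0.042 after median-of-ratios scaling and 0.061 without cage C in controls, and -0.019 to 0.19 in mutants with 1 library left out.

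With the replicate number as a block, 7 of the 9 genes passed between regions in controls and 6 in mutants (Cpt1a had adjusted p = 0.0514, limma), with 4236 and 5219 genes over all, and 0 passed for genotype. In the descending genotype comparison the block gave -0.085 for Acadm, -0.025 for Cpt1a and -0.14 for Acaa2. Nothing says what the numbers share, and the correlations of same-numbered libraries of the 2 regions ran from -0.28 to 0.37, with 4 of 15 over 0.1, so the numbers were not taken to pair libraries. Of 15 ascending libraries, 4 correlated best with the descending library of their own number.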
